A study of Mus musculus with 4 samples.

Results

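The genes described here encode the ligands and receptors of axon guidance, chosen by symbol as those that begin with Plxna to Plxnd or Unc5. Those that begin with Sema, Robo, Slit, Ntn, Epha, Ephb, Efna or Efnb followed by a digit were taken too. The rule found 71 of the 32285 genes counted. They were 20 semaphorins and 9 plexins, 3 Slits and 4 Robo receptors, 4 netrins and 4 Unc5 receptors, and 8 ephrins with 14 Eph receptors. The other 5 matched by name only, namely Unc50 and Unc5cl, whose products are no netrin receptors, and Plxna4os1, Plxna4os2 and Plxna4os3, which are transcribed from the strand opposite to Plxna4. These genes were found as cues that attract or repel growing axons, and the same pairs act between cells outside the nervous system. Semaphorins signal through plexins, often with a neuropilin as coreceptor, Slits through Robo receptors, netrins through Unc5 receptors and Dcc, and ephrins through Eph receptors on a neighbouring cell. In blood vessels ephrin B2 marks arteries and its receptor EphB4 marks veins, while Robo4 and Unc5b are known from endothelial cells (ECs).

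The lungs came from 2 WT mice on the C57/BL6J background and 2 VEcad-TRF2DN-Tg mice (Tg), all aged 8 to 9 weeks and, by the study's methods, male. In Tg mice the VE-cadherin promoter, active in ECs, drives a dominant-negative TRF2, a protein that otherwise protects telomeres, and the paper describes these lungs as exposed to chronic hypoxia, which the labels do not state. Single nuclei were captured in droplets, and each transcript was counted once by its unique molecular identifier (UMI). The transgene was not analysed here, and for mouse Terf2 in ECs the log2 fold change between the genotypes was 0.01 (standard error 0.176, edgeR adjusted p = 0.985).

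The 4 libraries held 125261739 to 182014706 UMIs, and 25269 to 44000 barcodes per mouse had at least 1500 UMIs. A barcode was given a class where it held UMIs of the markers of that class above the level of droplets without a nucleus, for which the barcodes of 300 to 800 UMIs stood. None of the 71 genes was a marker. Most barcodes passed for no class (18888 to 36048 per mouse). They outnumbered the barcodes of 300 to 800 UMIs (2732 to 18387 per mouse) in every mouse, and how many of them were droplets without a nucleus was not tested, so that the empty droplets described here are those of low UMI counts only. A further 232 to 650 per mouse held the markers of several classes and were left out. ECs came to 629 and 563 nuclei in WT and 1482 and 1724 nuclei in Tg mice, while pericytes (32 to 91 per mouse), fibroblasts (68 to 131) and monocyte-macrophages (20 to 56) were few. Of 16 classes, 14 had at least 5 nuclei in every mouse, and smooth muscle and neutrophil nuclei were not compared. EC nuclei held a median of 22 UMIs of their own markers and 4 of fibroblast markers, and alveolar type 1 nuclei 38 of their own and 4 of fibroblast markers. Between 176 and 475 barcodes were shared by each pair of libraries. Levels are UMIs of a gene per 1000000 UMIs of the class in that mouse (CPM), and since they are not corrected for gene length they are compared only within a gene. Values in every mouse are given in the order WT replicates 1 and 2, then Tg replicates 1 and 2.

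A total of 48 of the 71 had enough UMIs to be compared between the 14 classes, and 40 of these were more than 2-fold higher in at least 1 class than in the mean of the others, by edgeR's test against a 2-fold difference with a term for each mouse. Of all 12131 genes, 38.4% were higher in at least 1 class in this sense. The lists were longest in mesothelial nuclei (13 genes), ECs (12), fibroblasts (9), lymphatic ECs (9) and alveolar type 1 nuclei (8). The 8 genes in no list were Epha2, Plxna1, Plxnb2, Plxnd1, Sema4a, Sema4b, Sema4c and Unc50. Summed over the 71 genes, the level in the nuclei of the 14 classes was 5577, 4551, 3785 and 4166 CPM. In empty droplets it was 3636, 3142, 1679 and 2246 CPM, so that nuclei were above the empty droplets of the same mouse in all 4 mice, by 0.53 to 1.17 on the log2 scale.

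**Figure D1:**
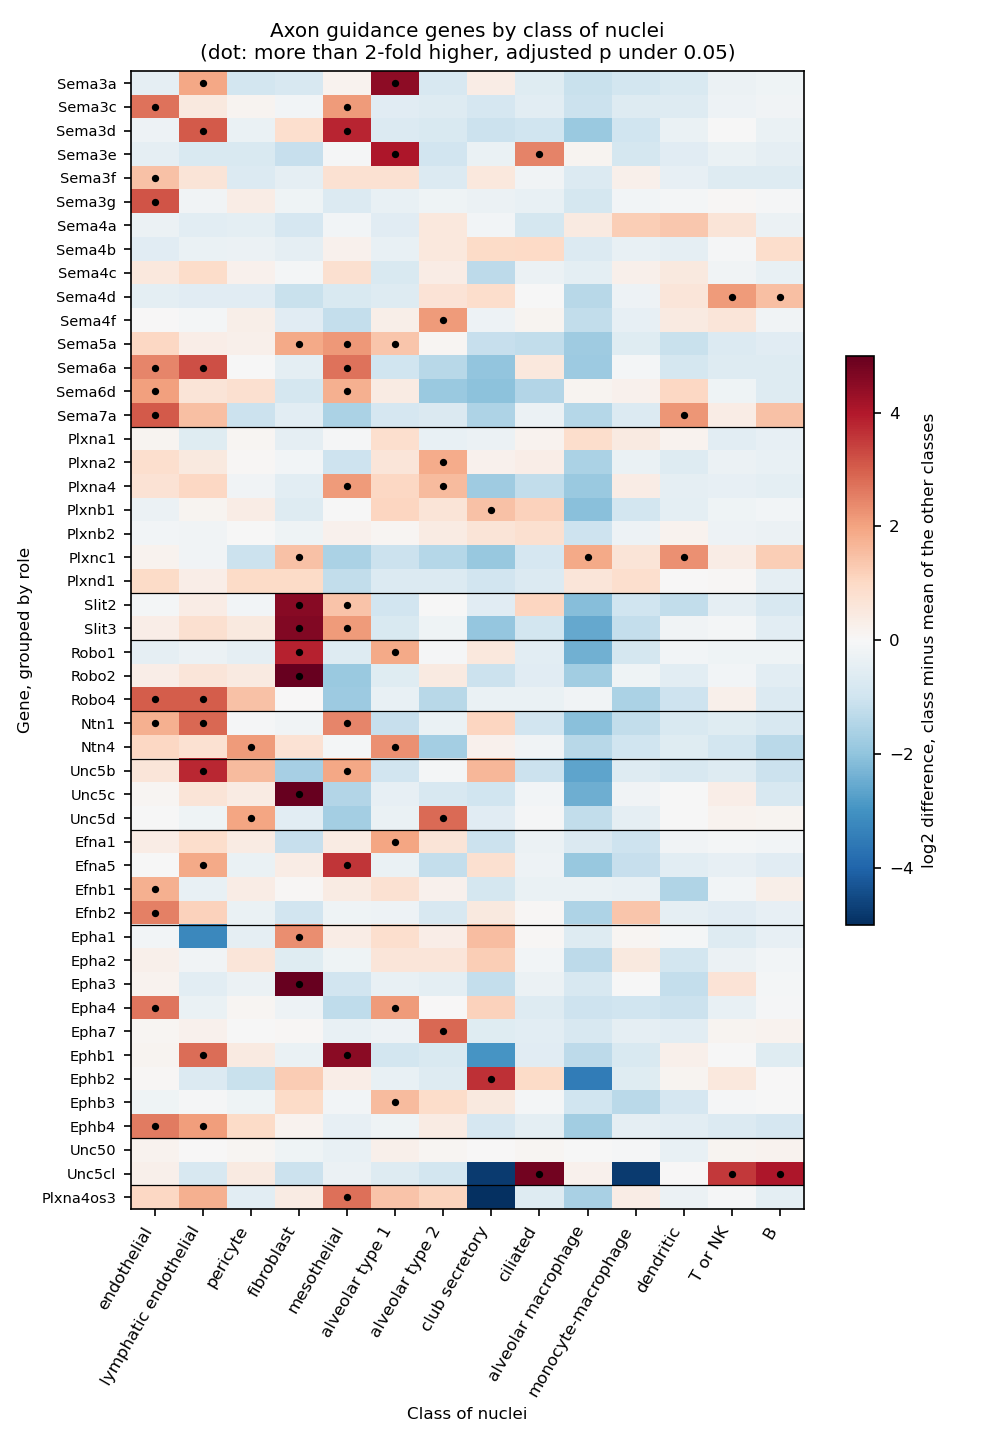
The 48 genes compared (rows, grouped by role) in 14 classes of nuclei (columns). Colour is the log2 difference between a class and the mean of the other classes and saturates at 5 in both directions, and a dot marks genes more than 2-fold higher with an edgeR adjusted p under 0.05. The fibroblast column holds the dots of Slit2, Slit3, Robo1, Robo2, Unc5c and Epha3, and the alveolar type 1 column those of Sema3a and Sema3e.

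ECs led with semaphorins and with the genes of ephrin B2 and its receptor EphB4. Of the 48 genes, 12 were more than 2-fold higher in ECs, where 3.57% of all genes were. Sema3g, which encodes a secreted semaphorin known from arterial endothelium, had 70.7 and 63.9 CPM in WT and 71.4 and 59.3 CPM in Tg mice. Empty droplets held 16.6 to 24.6 CPM of it, so that ECs were above them in every mouse, and the genotypes overlapped. Its log2 difference from the other classes was 3.15 (standard error 0.140, edgeR adjusted p = 7.59e-21). Sema7a, a membrane-anchored semaphorin that binds plexin C1, had 70.2, 57.6, 40.7 and 37.0 CPM and a log2 difference of 3.08 (standard error 0.172, edgeR adjusted p = 2.74e-16). Robo4, the endothelial member of the Robo family, had 22.5 and 24.7 CPM in WT and 27.1 and 23.5 CPM in Tg mice, with a log2 difference of 3.03 (standard error 0.188, edgeR adjusted p = 1.91e-14). Lymphatic ECs held Robo4 at much the same level, 18.5 to 31.5 CPM, and in no other class did the mean exceed 7.76 CPM.

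The promoters of Sema3g and Robo4 are shown because both genes are among the 3 with the largest difference in ECs. Each is RefSeq sequence of 300 bases (GRCm38.p6, 250 before and 50 after the start), 5′ to 3′ on the plus strand, at chr14:31217623-31217922 and chr9:37401722-37402021. Capitals mark AGGAAG on either strand, a core bound by ETS factors.
Sema3g: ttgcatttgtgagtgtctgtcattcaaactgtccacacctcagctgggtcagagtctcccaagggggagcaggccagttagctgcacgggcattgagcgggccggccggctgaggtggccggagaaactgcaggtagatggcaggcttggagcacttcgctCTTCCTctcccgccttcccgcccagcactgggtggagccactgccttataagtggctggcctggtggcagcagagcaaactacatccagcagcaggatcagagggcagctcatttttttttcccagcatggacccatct
Robo4: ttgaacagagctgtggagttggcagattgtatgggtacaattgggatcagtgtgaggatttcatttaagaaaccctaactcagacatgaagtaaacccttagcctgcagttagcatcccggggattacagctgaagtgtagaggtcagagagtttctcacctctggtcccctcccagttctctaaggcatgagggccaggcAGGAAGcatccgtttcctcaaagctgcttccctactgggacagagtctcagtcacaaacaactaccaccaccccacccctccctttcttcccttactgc
Each held 1 match. The same letters, on either strand, were in 35.4% of all 32851 promoters of this length and in 37.3% of the 75 promoters found for 59 of the 71 genes. ACGTG, the core of hypoxia response elements, was in neither sequence and in 19.6% of all promoters.

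Sema3c, a secreted semaphorin known from the cardiac outflow tract, was at 1936, 1947, 1513 and 1569 CPM in ECs and at 249 to 466 CPM in empty droplets. Its log2 difference was 2.71 (standard error 0.0723, edgeR adjusted p = 3.78e-29). Ephb4 had 94.1 and 81.9 CPM in WT and 99.4 and 81.1 CPM in Tg mice, and its ligand gene Efnb2 had 159, 120, 144 and 144 CPM. Receptor and ligand were thus both high in the EC class as a whole, with log2 differences of 2.59 for Ephb4 (standard error 0.127) and 2.50 for Efnb2 (standard error 0.111). Epha4, a receptor for ephrins of both classes, had 232, 149.8, 212 and 199.8 CPM. The transmembrane semaphorins Sema6a (450.2 to 532 CPM) and Sema6d (248 to 287 CPM), the netrin Ntn1 (167 to 270.2 CPM), Efnb1 (43.2 to 52.3 CPM) and Sema3f (50.6 to 70.7 CPM) made up the rest of the list. All 12 genes were above the empty droplets of the same mouse in all 4 mice.

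The vascular plexin Plxnd1, the receptor of Sema3e, did not pass, with 65.7, 52.1, 43.7 and 45.0 CPM in ECs beside 49.8, 49.4, 23.4 and 44.6 CPM in empty droplets (log2 difference 0.94, standard error 0.125). Plxna2, a receptor of secreted semaphorins, did not pass in ECs either (221 to 349 CPM, log2 difference 0.84, standard error 0.0958).

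Lymphatic ECs shared 4 genes with ECs (Robo4, Ephb4, Ntn1 and Sema6a) and had 5 others, and they held a median of 6 UMIs of EC markers beside 11 of their own. Of the 48 genes, 9 were more than 2-fold higher, where 2.70% of all genes were. Unc5b, which encodes a repulsive netrin receptor of vessels, had 94.6 and 71.7 CPM in WT and 109.5 and 68.6 CPM in Tg mice. ECs held 7.06 to 15.3 CPM and empty droplets 2.66 to 7.20 CPM, so that lymphatic ECs stood above both in every mouse, and the genotypes overlapped. The log2 difference from the other classes was 3.77 (standard error 0.181, edgeR adjusted p = 1.44e-21). Ntn1, which encodes its ligand, had 612, 375, 341 and 366 CPM and Sema6a 1110, 567, 854 and 928 CPM, and lymphatic ECs had the highest mean of any class for both. Sema3d, a secreted semaphorin, had 349 to 599 CPM and a log2 difference of 3.05 (standard error 0.136). Sema3a stood at 630.5, 326, 223 and 234 CPM in lymphatic ECs and at 103, 67.4, 56.4 and 57.2 CPM in ECs. Efna5 (805 to 1434 CPM) and Ephb1 (105 to 183 CPM) completed the list.

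Fibroblasts held both sides of the Slit and Robo system. Of the 48 genes, 9 were more than 2-fold higher, against 5.62% of all genes. Robo2, a receptor of Slits, had 2860 and 2460 CPM in WT and 1798 and 2726 CPM in Tg mice. Empty droplets held 24.1 to 134 CPM, and in no mouse did another class exceed 262 CPM. The log2 difference was 5.43 (standard error 0.120, edgeR adjusted p = 4.22e-40). Robo1 had 659, 842, 578 and 538 CPM and a log2 difference of 3.83 (standard error 0.128). The ligand genes were higher in the same nuclei, Slit2 at 3045, 1893, 1202 and 1790 CPM and Slit3 at 1445, 1618, 1199 and 1415 CPM, with log2 differences of 4.54 (standard error 0.108) and 4.62 (standard error 0.159). The netrin receptor gene Unc5c had 1307, 787, 774 and 984 CPM, against 9.76 to 37.2 CPM in empty droplets (log2 difference 5.77, standard error 0.142). Epha3, a receptor of ephrin A5, had 219.5, 213, 91.4 and 186 CPM (log2 difference 5.49, standard error 0.201). Sema5a, Plxnc1 and Epha1 also passed, with smaller log2 differences of 1.89, 1.45 and 2.34, and the call of Plxnc1 was lost by DESeq2 (adjusted p = 0.0938) and without WT replicate 1 (0.149).

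**Figure D2:**
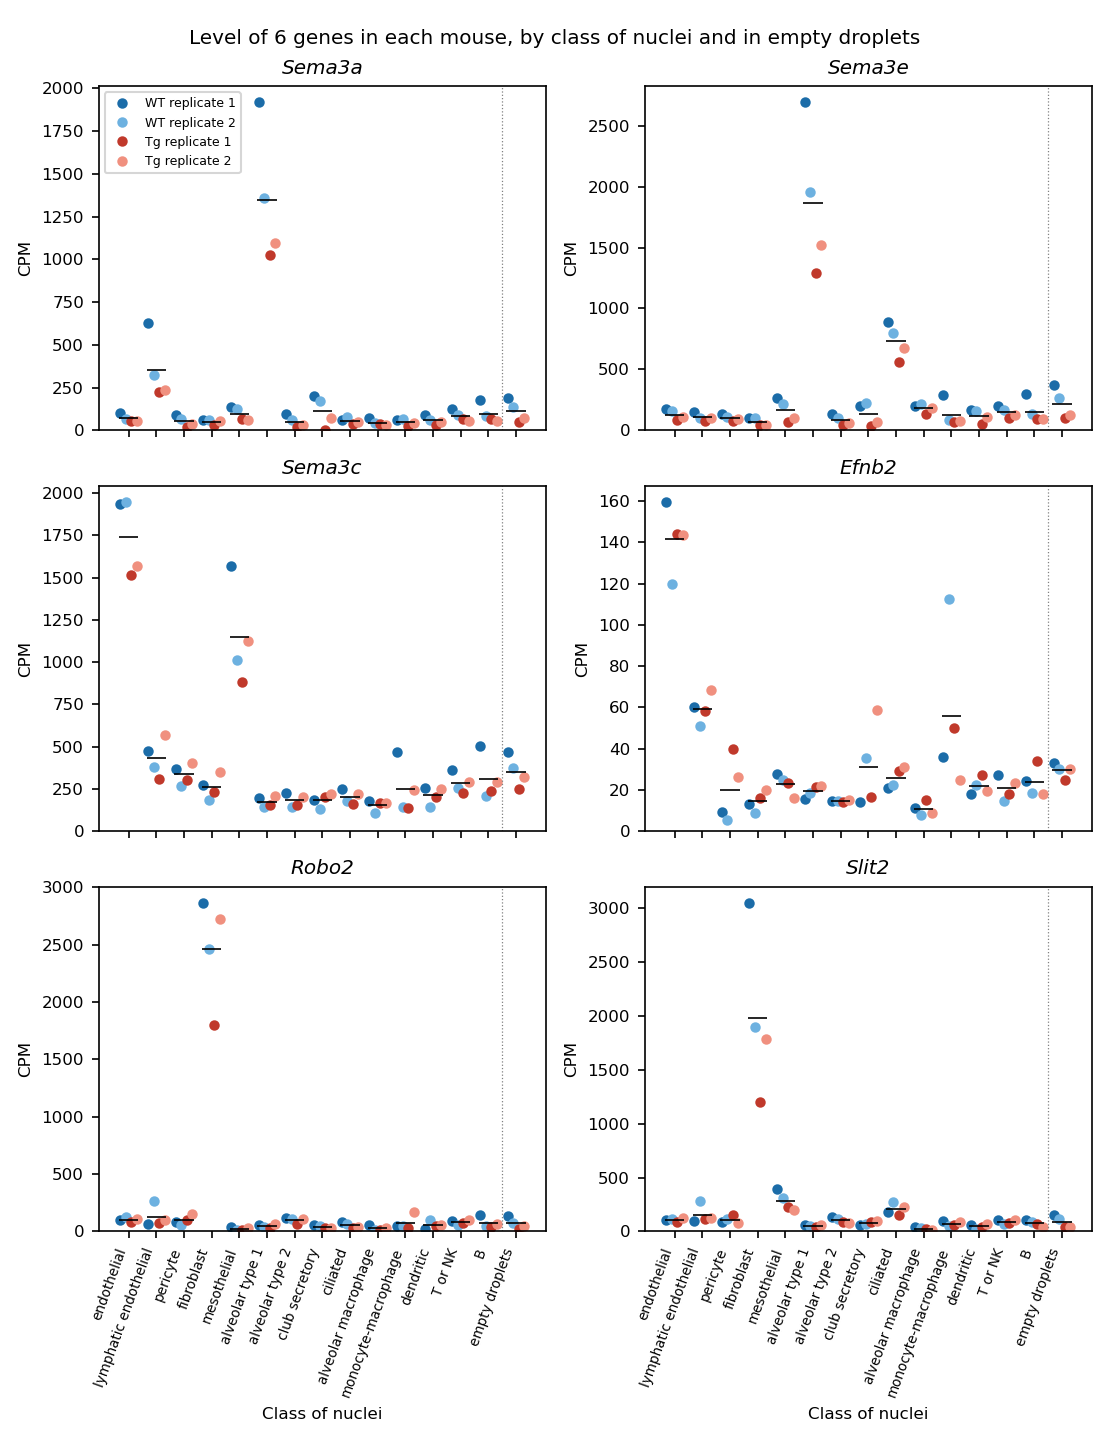
Level (CPM, linear axis from 0) of Sema3a, Sema3e, Sema3c, Efnb2, Robo2 and Slit2 in each of the 4 mice (points) in 14 classes of nuclei and, to the right of the dotted line, in empty droplets. Horizontal bars are means over the 4 mice. Robo2 stands at 1798 to 2860 CPM in fibroblasts and at no more than 262 CPM elsewhere, and Sema3e is high in alveolar type 1 and ciliated nuclei.

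Mesothelial nuclei, from the lining of the lung surface, had the longest list, 13 of the 48 genes against 5.42% of all genes. They held a median of 20 UMIs of their own markers, 8 of alveolar type 1, 7 of fibroblast and 4 of lymphatic EC markers, and the part of those other cell types in the list was not tested. Ephb1, which encodes a receptor of B ephrins, had 553 and 342 CPM in WT and 271 and 294 CPM in Tg mice, and a log2 difference of 4.50 (standard error 0.180, edgeR adjusted p = 4.05e-26). Sema3d had 848, 629, 553 and 606 CPM (log2 difference 3.81, standard error 0.122). Efna5, which encodes a membrane-anchored ephrin, was at 3719, 2643, 2148 and 2774 CPM, the highest mean of any class (log2 difference 3.59, standard error 0.104). Plxna4os3 was called at 3.07, 1.24, 27.1 and 33.5 CPM, and the Tg mice were far above the WT mice. Sema6a, Ntn1, Sema5a, Plxna4, Sema3c, Slit3, Unc5b, Sema6d and Slit2 were the others. The call of Slit2 was lost by DESeq2 (adjusted p = 0.361), at 3000 or more UMIs per nucleus (0.0806) and without WT replicate 1 or 2 (0.0585 and 0.0673), that of Unc5b with a stricter class margin (0.0664), and that of Plxna4os3 by DESeq2 (0.117). Robo2, the receptor gene for Slits, was more than 2-fold lower in mesothelial nuclei (12.4 to 43.0 CPM, log2 difference −1.87, standard error 0.333), as was Plxnc1 (log2 difference −1.59, standard error 0.234).

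Alveolar type 1 nuclei, from the thin cells across which gas is exchanged, were led by a pair of class 3 semaphorins. Of the 48 genes, 8 were more than 2-fold higher, against 4.67% of all genes. Sema3a, the repulsive ligand of neuropilin 1 and A plexins, had 1917 and 1358 CPM in WT and 1025 and 1095 CPM in Tg mice. Sema3e, which acts on plexin D1, had 2691 and 1959 CPM in WT and 1293 and 1518 CPM in Tg mice. For both genes each WT mouse was above each Tg mouse, and the test of that difference is given with the genotypes. The log2 difference from the other classes was 4.47 (standard error 0.0802, edgeR adjusted p = 9.01e-44) for Sema3a and 4.04 (standard error 0.0784, edgeR adjusted p = 3.93e-41) for Sema3e. Ntn4, a netrin of basement membranes, had 117 to 151 CPM in alveolar type 1 nuclei and passed in pericytes too. Epha4 (82.7 to 171 CPM), Efna1 (44.0 to 56.4 CPM), Robo1 (131 to 222 CPM), Ephb3 (26.2 to 34.2 CPM) and Sema5a (137 to 284 CPM) made up the rest, and the call of Sema5a was lost by DESeq2 (adjusted p = 0.566) and at 3000 or more UMIs per nucleus (0.0755). Epha2, the main receptor of ephrin A1, did not pass, with 30.4, 22.6, 10.8 and 15.3 CPM beside 30.6, 29.4, 12.4 and 12.3 CPM in empty droplets.

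Sema3d, Sema3a and Sema3e lie in this order on the plus strand of mouse chromosome 5, with 536 and 423 kilobases between them (GENCODE genes, GRCm38). Of these neighbours Sema3d (5:12383385-12588948) was called in mesothelial nuclei and lymphatic ECs but not in alveolar type 1 nuclei, and Sema3a (5:13125414-13602565) and Sema3e (5:14025276-14256689) were not called in mesothelial nuclei. Sema3a was called in lymphatic ECs too, and Sema3e in ciliated nuclei, where Sema3a was not. The promoters of Sema3a and Sema3e are shown because these genes led alveolar type 1 nuclei together. They are RefSeq sequence of 300 bases (GRCm38.p6) on the plus strand, at chr5:13396534-13396833, which lies inside the longer GENCODE gene, and at chr5:14025026-14025325, with AGGAAG on either strand in capitals.
Sema3a: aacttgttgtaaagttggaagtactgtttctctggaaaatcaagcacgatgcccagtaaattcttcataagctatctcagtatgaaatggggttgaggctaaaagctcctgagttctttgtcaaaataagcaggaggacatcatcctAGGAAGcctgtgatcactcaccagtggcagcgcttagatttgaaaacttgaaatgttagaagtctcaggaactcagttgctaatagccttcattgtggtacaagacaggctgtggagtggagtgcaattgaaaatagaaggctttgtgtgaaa
Sema3e: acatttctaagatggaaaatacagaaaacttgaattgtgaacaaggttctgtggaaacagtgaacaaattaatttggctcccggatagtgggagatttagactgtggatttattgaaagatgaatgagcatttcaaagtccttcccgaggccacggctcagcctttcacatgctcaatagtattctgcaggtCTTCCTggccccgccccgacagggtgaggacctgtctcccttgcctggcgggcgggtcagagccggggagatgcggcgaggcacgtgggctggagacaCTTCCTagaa
Sema3a held 1 match to AGGAAG and Sema3e 2. GGAATG, a core bound by TEAD factors, was in neither and in 14.7% of all promoters. ACGTG was in that of Sema3e, where it reads on both strands of the same stretch.

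The remaining classes had short lists. Alveolar type 2 nuclei, from the cells that make surfactant, were named by Abca3, Etv5, Napsa and Lpcat1 only. Sftpc, Sftpb, Sftpa1, Sftpd, Lamp3, Slc34a2 and Cxcl15 were above 400 CPM in empty droplets and were left out. In the 4 mice 88 of 251, 113 of 419, 146 of 332 and 156 of 417 of these nuclei lay near the class threshold. In this class 5 of the 48 genes were more than 2-fold higher, against 3.94% of all genes. They were Epha7 (378 to 532 CPM, log2 difference 2.86, standard error 0.0920), Unc5d (132 to 223 CPM, log2 difference 2.83, standard error 0.125), Sema4f (29.0 to 55.3 CPM), and the plexins Plxna2 (398 to 592 CPM) and Plxna4 (406 to 651 CPM). Pericytes, the mural cells of capillaries, had 2 genes, against 2.33% of all genes. These were Ntn4, with 92.1, 156, 169 and 148 CPM, and Unc5d, with 147, 146, 39.7 and 131 CPM. The call of Unc5d was lost without Tg replicate 2 (adjusted p = 0.0565).

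In the airway, club nuclei (37 to 82 per mouse) had 2 genes, against 3.42% of all genes. This class was named by Muc5b, Gabrp and Bpifa1 only. Scgb1a1, Scgb3a1, Scgb3a2 and Cyp2f2 were above 400 CPM in empty droplets and were left out. Ephb2, which encodes a receptor of B ephrins, was at 51.2, 58.7, 66.4 and 89.5 CPM in club nuclei and at 10.3 to 12.4 CPM in ciliated nuclei. The plexin Plxnb1 was at 65.9 to 133 CPM in club nuclei, and its call was lost by DESeq2 (adjusted p = 0.289) and without WT replicate 2 or Tg replicate 1 (adjusted p = 0.185 and 0.23), as well as without the low-count filter, at 3000 or more UMIs and with a stricter class margin (0.0972, 0.157 and 0.0621). Ciliated nuclei had 2 genes, against 10.0% of all genes, Sema3e (559 to 891 CPM) and Unc5cl (16.0 to 55.2 CPM). Sema3a in ciliated nuclei was at 37.0 to 76.0 CPM, below the empty droplets of the same mouse in all 4 mice (189.5, 137, 47.8 and 73.4 CPM).

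Among blood cells, Sema4d, known as CD100 on lymphocytes, was raised in T or NK nuclei (225, 235, 109.8 and 169.7 CPM, 2.23% of all genes called) and in B nuclei (133, 149.5, 105 and 81.8 CPM, 2.32%). Without WT replicate 2 its call in B nuclei was lost (adjusted p = 0.205). Unc5cl was the other gene called in both. The Sema7a receptor gene Plxnc1 was raised in dendritic nuclei (166 to 352 CPM, 3.50% of all genes called) and in alveolar macrophages (166 to 218 CPM, 5.26%). Sema7a itself passed in dendritic nuclei (62.0, 32.0, 4.49 and 30.1 CPM), and its call was lost by DESeq2 (adjusted p = 0.0558) and without Tg replicate 2 (0.106). In monocyte-macrophages 0 of the 48 genes passed by edgeR, where 2.51% of all genes did, with 1 at an unadjusted p under 0.05 and 0 by DESeq2. In alveolar macrophages 13 of the 48 were more than 2-fold lower, where 4.34% of all genes were, among them Slit2, Slit3 and Robo1.

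The least detected of the 71 genes were Epha8, with 1 UMI in the nuclei of the 14 classes, Epha10 with 9 and Robo3 with 19. Robo3 lies 553 bases from Robo4 on chromosome 9, on the opposite strand, and Robo4 had 617 UMIs in the same nuclei.

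Most ECs (371, 357, 967 and 1092 nuclei) were given no subclass and are not part of the subclass comparisons. Within the others, arterial and venous nuclei (54 to 176 and 58 to 163 per mouse) were compared in the same mice. Of 37 guidance genes, 8 passed edgeR's test, where 3.73% of all genes did, and 7 of these were higher in arterial nuclei. Sema3g had 71.3, 95.8, 86.9 and 83.3 CPM in arterial and 17.1, 56.0, 20.6 and 28.8 CPM in venous nuclei, with no overlap (log2 fold change 1.56, standard error 0.245, edgeR adjusted p = 6.30e-05). Efnb2, the arterial ephrin gene, had 242, 135, 209.9 and 215 CPM in arterial and 123, 116, 129 and 85.0 CPM in venous nuclei (log2 fold change 0.89, standard error 0.166, edgeR adjusted p = 6.07e-04). Its receptor gene Ephb4 stood the other way round in each mouse, at 97.7 to 119 CPM in arterial and 123 to 159.7 CPM in venous nuclei, but did not pass (log2 fold change −0.35, standard error 0.162, edgeR adjusted p = 0.387). Sema3c (0.97), Epha4 (0.94), Slit2 (1.18), Sema5a (1.37) and Efna5 (1.41) were higher in the arterial nuclei of all 4 mice, with these log2 fold changes. Arterial nuclei were not tested against general capillary ECs. There the means of Efnb2, Sema3g, Sema3c, Epha4 and Sema5a were 200.9, 106.3, 2717, 275.7 and 228 CPM, beside 200.6, 84.32, 1971, 246.4 and 192 CPM in arterial nuclei. Slit2 and Efna5 were lower there, at 56.45 and 121 CPM beside 185.6 and 642.6 CPM in arterial nuclei. Ntn1 was higher in the venous nuclei of all 4 mice, at 633, 306, 342 and 305 CPM against 313, 172, 248 and 258 CPM (log2 fold change −0.59, standard error 0.138, edgeR adjusted p = 0.00771). By DESeq2 the calls of Efnb2, Efna5 and Ntn1 were lost (adjusted p = 0.0682, 0.113 and 0.112), and with free RNA subtracted those of Efnb2, Slit2 and Ntn1 (log2 fold changes 0.84, 1.79 and −0.73, adjusted p = 0.109, 0.103 and 0.103). Without Tg replicate 2 the call of Efnb2 was lost (adjusted p = 0.0774), and without either WT replicate that of Ntn1 (0.104 and 0.0623), which was lost at 3000 or more UMIs per nucleus too (0.0571).

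In capillaries, aerocytes, the large cells apposed to alveolar type 1 cells, were compared with general capillary ECs (47 to 158 and 43 to 135 nuclei per mouse). Of 31 guidance genes, 13 passed, against 9.22% of all genes, 6 higher and 7 lower in aerocytes. Ntn1 had 93.0, 57.4, 56.5 and 56.1 CPM in aerocytes and 227, 174, 215 and 207 CPM in general capillary ECs, without overlap (log2 fold change −1.71, standard error 0.191, edgeR adjusted p = 6.77e-11). The other netrin gene, Ntn4, went the opposite way, with 162, 188, 134 and 172 CPM in aerocytes and 60.5, 59.5, 55.6 and 36.8 CPM in general capillary ECs (log2 fold change 1.70, standard error 0.216, edgeR adjusted p = 3.81e-09). Sema3c was at 1052 to 1704 CPM against 2462 to 3026 CPM (log2 fold change −1.02, standard error 0.0969), and Sema3g was lower in aerocytes as well (log2 fold change −1.44, standard error 0.248). Efnb2 and Ephb4 were both lower in the aerocytes of every mouse, with log2 fold changes of −0.83 (standard error 0.170) and −1.02 (standard error 0.221), as was Epha4 (−0.78). The plexins Plxna2 (0.87, standard error 0.132) and Plxna4 (0.87, standard error 0.134) and the ephrin gene Efna5 (0.86) were higher in the aerocytes of every mouse, and Sema5a (0.83) in 3 of 4. Robo2 and Sema6d passed by a small margin (edgeR adjusted p = 0.0408 and 0.0412), and both were lost without WT replicate 2, Tg replicate 1 or Tg replicate 2 (adjusted p = 0.0736 to 0.51). Efna5 in aerocytes was at 215, 425, 166 and 173 CPM, highest in WT replicate 2, and without this mouse its log2 fold change was 0.46 and its call was lost (adjusted p = 0.125). By DESeq2 the calls of Ephb4, Efna5, Robo2 and Sema6d were lost (adjusted p = 0.0759, 0.0795, 0.767 and 0.611), with free RNA subtracted those of Sema5a, Efna5, Robo2 and Sema6d (log2 fold changes 0.92, 1.56, 1.22 and −0.54, adjusted p = 0.0992, 0.128, 0.172 and 0.102), and at 3000 or more UMIs per nucleus those of Sema5a, Robo2 and Sema6d (0.256, 0.0655 and 0.283). Robo2 and Sema6d were lost also without the low-count filter (0.0946 and 0.0852) and with a stricter class margin (0.572 and 0.399), where the log2 fold change of Robo2 was 0.41.

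Among fibroblasts, alveolar and adventitial nuclei (11 to 29 and 9 to 15 per mouse) differed in 8 of 15 guidance genes, against 12.0% of all genes. Most fibroblasts (88, 58, 79 and 48 nuclei) were given no subclass and were left out here. Robo2 had 3898, 3723, 2139 and 5075 CPM in alveolar and 1309, 1205, 363 and 1319 CPM in adventitial fibroblasts, with no overlap (log2 fold change 1.99, standard error 0.258, edgeR adjusted p = 2.12e-06). Robo1 had 741 to 1099 CPM against 151 to 516 CPM (log2 fold change 1.96, standard error 0.325). Slit2, the ligand gene, was higher in the alveolar fibroblasts of all 4 mice (log2 fold change 1.19, standard error 0.290), and its call was lost without Tg replicate 1 (adjusted p = 0.117). Sema3d went the other way, with 12.6, 42.0, 0 and 41.3 CPM in alveolar and 336, 172, 344 and 195 CPM in adventitial fibroblasts (log2 fold change −3.31, standard error 0.513, edgeR adjusted p = 3.15e-05), as did Efna5 (log2 fold change −1.96, standard error 0.299). Unc5c (1.00), Plxnc1 (1.60) and Plxna4 (−2.33) were called as well, and the calls of these 3 were lost by DESeq2 (adjusted p = 0.0929, 0.244 and 0.357), with free RNA subtracted (log2 fold changes 1.02, 1.74 and −3.04, adjusted p = 0.0696, 0.0974 and 0.0603), and on leaving out 1 or more single mice. Without WT replicate 2 the log2 fold changes of Unc5c and Plxnc1 were 0.61 and 1.09. Plxna4 was at 81.7, 14.0, 85.1 and 0 CPM in alveolar and 48.0, 732, 134 and 433 CPM in adventitial fibroblasts, where it rested on 4, 68, 7 and 20 UMIs, and WT replicate 1 went the other way. For Plxna4, alveolar against adventitial fibroblast, the log2 fold change was −3.58 without WT replicate 1.

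**Figure D3:**
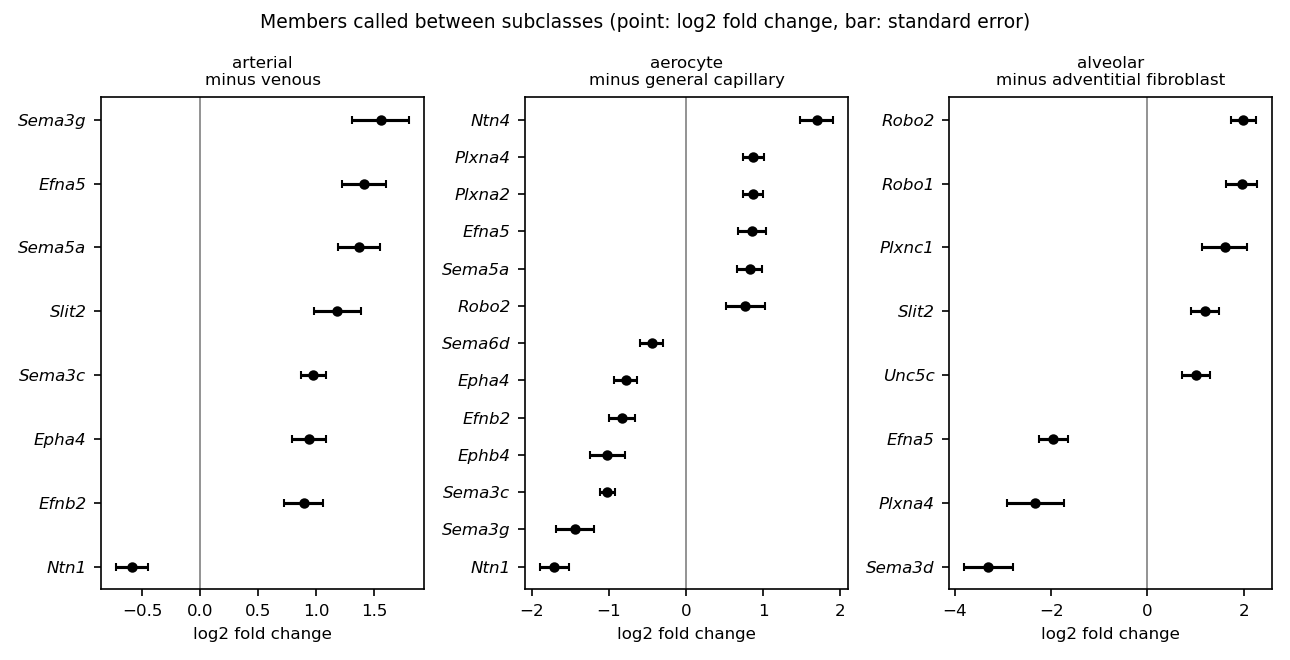
Guidance genes called in 3 comparisons of subclasses within the same mice, with log2 fold change (point) and its standard error (bar). Values to the right of 0 are higher in arterial ECs, aerocytes and alveolar fibroblasts. Ntn1 lies left of 0 in both EC comparisons (−0.59 and −1.71), and Ntn4 is the highest point among the aerocyte genes (1.70).

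The study asks what senescence of ECs changes in the lung, and Tg and WT mice were compared in 6 classes with edgeR's quasi-likelihood test over all genes of a class. With 2 mice against 2, an exact permutation test could give no two-sided p below 0.333, so that only the fit across all genes was used. In simulated EC counts with 200 genes changed, that fit recovered 76.5% of 4-fold and 0% of 2-fold changes. The spread of the simulated counts was estimated over all 4 mice without a genotype term. It therefore took in differences between the genotypes, and these shares do not give the power of the fit on the real counts.

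In ECs, where the promoter of the transgene is active, 0 of 53 guidance genes were called by edgeR, where 7.01% of all genes were. Of the 53, 13 had an unadjusted p under 0.05, a level at which all genes were not counted. DESeq2 called 1, Sema3e, where it called 7.57% of all genes. The arterial and venous genes Efnb2 (log2 fold change 0.03, standard error 0.201) and Ephb4 (0.02, standard error 0.200) overlapped between the genotypes, as did Sema3g (−0.05) and Robo4 (0.09). In Sema3c each WT mouse was above each Tg mouse (log2 fold change −0.35, standard error 0.204, edgeR adjusted p = 0.308). Sema3e in ECs was at 173 and 157 CPM in WT and 84.5 and 109 CPM in Tg mice, again without overlap (log2 fold change −0.79, standard error 0.185, edgeR adjusted p = 0.0509). In the empty droplets of the same mice Sema3e was at 376, 266, 105 and 130.3 CPM, above the level in ECs and likewise lower in both Tg mice. Plxnb2, which encodes a receptor of class 4 semaphorins, was at 19.4 and 25.5 CPM in WT and 43.7 and 41.0 CPM in Tg mice (log2 fold change 0.90, standard error 0.225, edgeR adjusted p = 0.0588), and its level in empty droplets, 43.4, 38.6, 89.0 and 82.6 CPM, was above ECs in each mouse and likewise higher in both Tg mice. Plxna4os3 was at 1.80, 1.96, 11.6 and 6.88 CPM (edgeR adjusted p = 0.0508), and passed the low-count filter only through the Tg mice. It was called without the low-count filter, with the replicate number as a block and at 3000 or more UMIs per nucleus (12.0%, 14.6% and 6.55% of all genes). Sema3e and Plxnb2 were called without the filter and with the block, and Robo1 was called lower in Tg mice without the filter (log2 fold change −0.81). Without WT replicate 1 the log2 fold change of Plxna4os3 was 2.22, and without WT replicate 2 that of Sema3e was −0.91. Sema7a was at 70.2, 57.6, 40.7 and 37.0 CPM, each WT mouse above each Tg mouse (log2 fold change −0.73, standard error 0.203, edgeR adjusted p = 0.0768), and at 11.9, 14.1, 9.44 and 12.3 CPM in empty droplets, where the genotypes overlapped. It was called without the low-count filter, at 3000 or more UMIs per nucleus, with the replicate number as a block and without WT replicate 2, and not in the other alternatives. Free RNA, traced by hemoglobin and secretoglobin transcripts, was estimated at 42.7% and 41.3% of EC UMIs in WT and 30.6% and 31.9% in Tg mice, and with it subtracted 0 of the guidance genes were called in ECs, where 1.39% of all genes were.

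In alveolar type 1 nuclei 4 of 52 guidance genes were called, where 7.18% of all genes were. Sema5a, a transmembrane semaphorin gene, had 284 and 267 CPM in WT and 137 and 175 CPM in Tg mice (log2 fold change −0.85, standard error 0.163, edgeR adjusted p = 0.0315). Empty droplets held 113, 117, 38.7 and 57.5 CPM of it, lower than the nuclei in every mouse and likewise lower in both Tg mice. Ephb1 had 3.91 and 6.08 CPM in WT and 11.7 and 17.5 CPM in Tg mice (log2 fold change 1.48, standard error 0.326, edgeR adjusted p = 0.0445), below its level in the empty droplets of each mouse (14.2 to 23.6 CPM). Ephb6, an Eph receptor gene whose product lacks kinase activity, rested on 2 and 2 UMIs in WT and 18 and 27 in Tg mice (log2 fold change 3.03, standard error 0.590, edgeR adjusted p = 0.0328). Ephb6 passed the low-count filter only through the Tg mice, so the direction of its call was not independent of that filter. Its level in empty droplets, 1.62, 4.20, 8.89 and 14.9 CPM, was above that in the nuclei of each mouse and higher in both Tg mice. Plxna4os3 had 1.40, 0.961, 16.3 and 6.81 CPM (log2 fold change 3.33, standard error 0.648, edgeR adjusted p = 0.0328) and 0.720, 0.420, 1.59 and 3.59 CPM in empty droplets, also higher in both Tg mice, while Plxna4, which it overlaps on the other strand, had 380.2, 384, 284 and 342 CPM. Like Ephb6, Plxna4os3 passed the low-count filter only through the Tg mice. Sema3a and Sema3e, the genes that led this class, did not pass, although neither overlapped between the genotypes (log2 fold changes −0.65 and −0.76, standard errors 0.230 and 0.227, edgeR adjusted p = 0.119 and 0.0862). Both were called without the low-count filter and without WT replicate 2, and Sema3e by DESeq2.

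In alveolar type 2 nuclei 3 of 41 guidance genes were called, where 8.34% of all genes were, and each was lower in the Tg mice. Sema3a had 94.4 and 59.1 CPM in WT and 21.1 and 32.9 CPM in Tg mice (log2 fold change −1.42, standard error 0.294, edgeR adjusted p = 0.014). Sema3e had 132, 99.2, 42.2 and 62.8 CPM (log2 fold change −1.08, standard error 0.236, edgeR adjusted p = 0.0177). Both were below the empty droplets of the same mouse in all 4 mice, where Sema3a was at 189.5, 137, 47.8 and 73.4 CPM. Slit3 had 91.0, 74.2, 47.5 and 46.3 CPM (log2 fold change −0.78, standard error 0.214, edgeR adjusted p = 0.0482) beside 73.0, 80.8, 21.9 and 17.4 CPM in empty droplets, with no overlap between the genotypes in either. With the free RNA of each mouse subtracted, 0 guidance genes were called in alveolar type 1 nuclei and 0 in alveolar type 2 nuclei, where 1.19% and 0.755% of all genes were. The log2 fold changes were then 3.62 for Plxna4os3, 2.91 for Ephb1 and −0.75 for Sema5a in alveolar type 1 nuclei, and −1.87 for Sema3a, −1.09 for Sema3e and −0.49 for Slit3 in alveolar type 2 nuclei, and Ephb6 no longer had enough UMIs to be tested. Without Tg replicate 1 the count was also 0 in both, where 0.0329% and 2.34% of all genes were still called, and the log2 fold change of Sema3a in alveolar type 2 nuclei was then −1.23 (edgeR adjusted p = 0.132). Other losses differed between the genes. In alveolar type 1 nuclei Ephb1 was lost by DESeq2 (adjusted p = 0.0501), with a stricter class margin (0.0757), without WT replicate 1 (0.0807) and without Tg replicate 2 (0.143). Ephb6 was lost by DESeq2 (adjusted p = 0.0816), without WT replicate 2 (0.107) and without Tg replicate 2 (0.116), and Sema5a without WT replicate 1 (0.0591) and without Tg replicate 2 (0.0707). In alveolar type 2 nuclei Slit3 was lost by DESeq2 (adjusted p = 0.214) and at 3000 or more UMIs per nucleus (0.221). It was lost also without WT replicate 1 and without Tg replicate 2 (log2 fold changes −0.65 and −0.72). With a stricter class margin Slit3 was still called (log2 fold change −1.39), and Efna5 was called too (−0.94), where 7.10% of all genes were. Sema3a and Sema3e were lost with a stricter class margin (adjusted p = 0.0693 and 0.12), and Sema3a without Tg replicate 2 (0.0554).

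**Figure D4:**
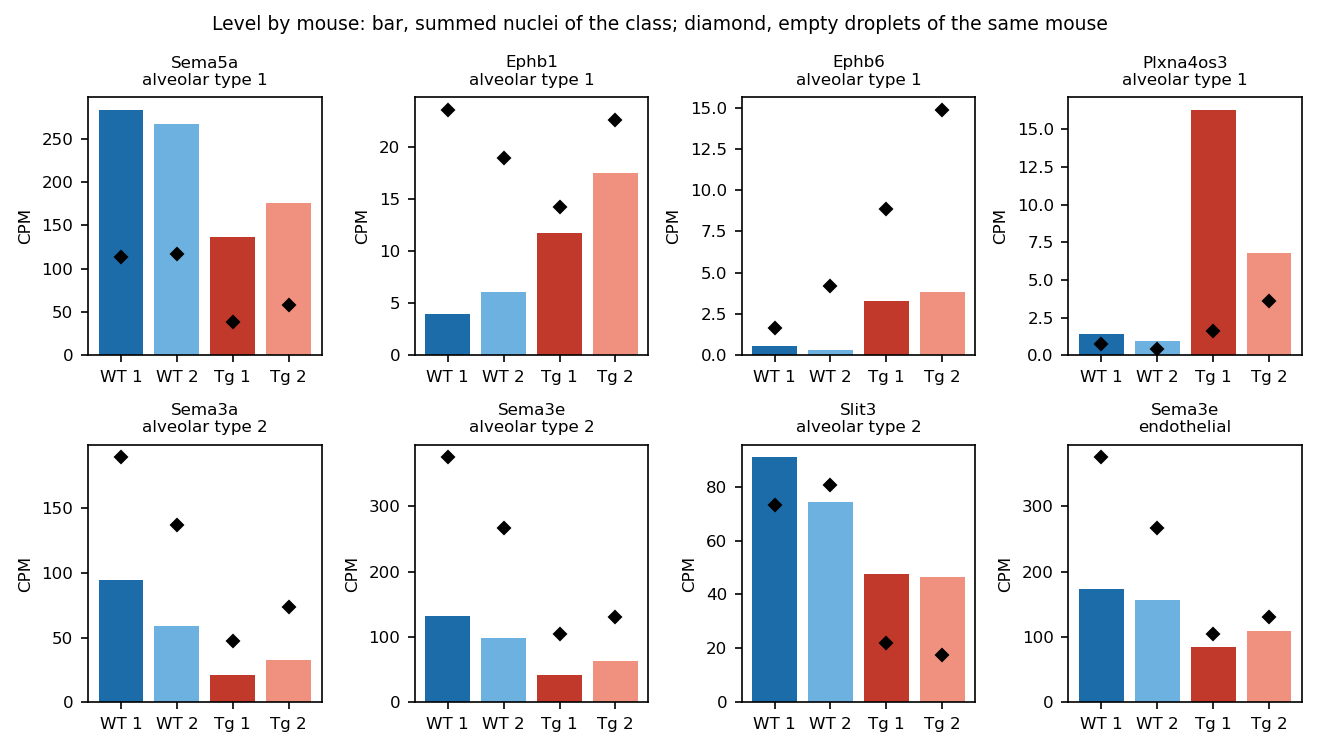
Level (CPM, bars from 0) of the 7 genes called between the genotypes in alveolar type 1 or type 2 nuclei, and of Sema3e in ECs, in each mouse, with the level in the empty droplets of the same mouse (diamonds). The diamonds separate the genotypes in the same direction as the bars for Sema3a, Sema3e, Sema5a, Slit3, Ephb6 and Plxna4os3, and overlap for Ephb1.

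In pericytes 0 of 17 guidance genes were called by edgeR (3.64% of all genes), in fibroblasts 0 of 32 (6.52%) and in monocyte-macrophages 0 of 14 (4.49%). At an unadjusted p under 0.05 there were 4, 3 and 2, without a count of all genes. DESeq2 called 0 in each, where it called 2.15%, 3.44% and 2.10% of all genes. In pericytes Slit3 was at 18.4, 52.0, 233 and 85.8 CPM, on 2, 10, 47 and 36 UMIs (log2 fold change 2.08, standard error 0.633, edgeR adjusted p = 0.11), each Tg mouse above each WT mouse. It was called higher in Tg mice without the low-count filter, at 3000 or more UMIs per nucleus and on leaving out WT replicate 1, WT replicate 2 or Tg replicate 2, and was not called by DESeq2, with the replicate number as a block, with free RNA subtracted, with a stricter class margin or without Tg replicate 1. Its log2 fold change was 1.63 without WT replicate 1 and 3.11 without WT replicate 2. The leading fibroblast genes did not pass (Robo2 log2 fold change −0.18, standard error 0.259, and Slit2 −0.68, standard error 0.295). Slit2 was called lower in Tg mice without the low-count filter (−0.8, 4.96% of all genes called). Without WT replicate 2 its log2 fold change was −1.02. Sema3e in fibroblasts was at 98.7, 104, 43.4 and 47.9 CPM (log2 fold change −1.08, standard error 0.290, edgeR adjusted p = 0.0528), below the empty droplets of the same mouse. The median log2 fold change of the guidance genes tested was −0.11 in ECs, −0.09 in alveolar type 1, −0.19 in alveolar type 2, −0.04 in fibroblast, −0.05 in monocyte-macrophage and 0.11 in pericyte nuclei, beside −0.02 to 0.04 for all genes of these classes.

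The genotypes were also compared in the 8 other classes with at least 5 nuclei in every mouse, a choice made after the data had been seen. By edgeR guidance genes were called in 3 of these, 3 in mesothelial nuclei (5.73% of all genes), 2 in club nuclei (5.11%) and 2 in dendritic nuclei (6.13%). In mesothelial nuclei Slit3, a ligand of Robo receptors, was at 464 and 485 CPM in WT and 139 and 164 CPM in Tg mice (log2 fold change −1.58, standard error 0.209, edgeR adjusted p = 0.00445). Empty droplets held 73.0, 80.8, 21.9 and 17.4 CPM of it, below the nuclei in every mouse and also lower in both Tg mice. Sema3e was lower in the Tg mice in mesothelial nuclei (log2 fold change −1.40, standard error 0.266, edgeR adjusted p = 0.0178) and in club nuclei (log2 fold change −1.88, standard error 0.360, edgeR adjusted p = 0.0042), and Sema5a in club nuclei (log2 fold change −2.39, standard error 0.590, edgeR adjusted p = 0.0254). In dendritic nuclei the semaphorin gene Sema6a was at 26.6, 9.59, 71.8 and 99.2 CPM (log2 fold change 2.70, standard error 0.544, edgeR adjusted p = 0.00532), and the ephrin gene Efna5 at 142, 137, 188 and 358 CPM (log2 fold change 1.14, standard error 0.313, edgeR adjusted p = 0.0389), with each Tg mouse above each WT mouse. The class had 33 and 45 nuclei in WT mice, with 112930 and 312906 UMIs, so that Sema6a rested on few UMIs there. Sema6a passed the low-count filter only through the Tg mice, so the direction of its call was not independent of that filter. In empty droplets Efna5 went the other way, at 268, 254, 81.4 and 151 CPM, and Sema6a was at 97.0, 62.6, 56.1 and 65.2 CPM. The antisense transcript Plxna4os3 was at 3.07, 1.24, 27.1 and 33.5 CPM in mesothelial nuclei (log2 fold change 3.99, standard error 0.701, edgeR adjusted p = 0.0133). Its WT levels also rested on few UMIs, out of 325384 and 805930 in the class, and it too passed the low-count filter only through the Tg mice. By edgeR 0 guidance genes were called in T or NK (5.86% of all genes), B (3.96%), lymphatic endothelial (4.75%), ciliated (3.26%) and alveolar macrophage nuclei (4.46%), with 13, 13, 3, 10 and 1 at an unadjusted p under 0.05, and DESeq2 called 2 in ciliated nuclei (5.38% of all genes) and 0 in each of the others (2.17% to 4.82%). The median log2 fold change of the guidance genes tested in the 8 classes lay between −0.36 in alveolar macrophages and 0.14 in club nuclei.

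The alternatives were run in these classes too. With the replicate number as a block, guidance genes were also called in classes without a call in the main fit. They were 6 in ciliated (15.8% of all genes), 3 in lymphatic endothelial (8.52%), 2 in T or NK (9.63%) and 2 in B nuclei (6.54%). Alveolar macrophages still had 0 (6.78%). The call of Slit3 in mesothelial nuclei stood by DESeq2 and with free RNA subtracted, where 1.68% of all genes were called, and was lost without WT replicate 1 (adjusted p = 0.08), where 0% of all genes were called, and with a stricter class margin (0.0522). Sema3e in mesothelial nuclei was lost with free RNA subtracted (log2 fold change −1.31, adjusted p = 0.0917), without WT replicate 1 (0.17) and without Tg replicate 1 (0.0553). Plxna4os3 there was lost with free RNA subtracted (log2 fold change 3.71, adjusted p = 0.0937) and on leaving out any single mouse (0.0501 to 0.122), was given no adjusted p by DESeq2, and had too few UMIs to be tested with a stricter class margin. In club nuclei Sema3e was lost with free RNA subtracted (log2 fold change −2.49, adjusted p = 0.112), with a stricter class margin (0.0838) and without Tg replicate 1 or 2 (0.203 and 0.391), where 0% of all genes were called in both cases. Sema5a in club nuclei was lost by DESeq2 (adjusted p = 0.298) and without WT replicate 2, Tg replicate 1 or Tg replicate 2 (0.747, 0.424 and 0.451), and had too few UMIs to be tested with free RNA subtracted or with a stricter class margin. In dendritic nuclei Sema6a and Efna5 were lost with free RNA subtracted (log2 fold changes 7.46 and 2.33, adjusted p = 0.13 and 0.145, with 0% of all genes called). Free RNA was estimated at 41.4% and 29.8% of dendritic UMIs in WT mice. Its subtraction left no Sema6a UMIs there, so that 7.46 is not an exact size. Both genes were lost without WT replicate 2 (log2 fold changes 1.81 and 1.09) and without Tg replicate 2 (2.39 and 0.61). Efna5 was lost also by DESeq2 (adjusted p = 0.356), with a stricter class margin (0.377) and with the replicate number as a block (0.0588). Sema6a was not called by DESeq2 either, which gave it no adjusted p, and had too few UMIs to be tested with a stricter class margin.

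Whether the genotype difference in ECs was unlike that in the other classes was tested as an interaction, with a term for each mouse. It was called for 0 of 52 guidance genes and 0 of all 13257 genes by edgeR, with 8 and 416 at an unadjusted p under 0.05, and for 0 guidance genes by DESeq2. The lowest p among the guidance genes was that of Robo1 (0.00374 unadjusted, log2 difference −0.73, standard error 0.241). Robo1 was at 59.4, 274, 36.2 and 24.4 CPM in arterial and 17.1, 228, 29.9 and 30.4 CPM in venous nuclei. Its WT level there thus rested largely on WT replicate 2.

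Of 13 coreceptors and other partners of these genes, 11 were compared between the classes. The neuropilins differed, Nrp1 being more than 2-fold higher in alveolar type 2 nuclei (log2 difference 2.08, standard error 0.0735) and Nrp2 in lymphatic ECs (2.43, standard error 0.113). Within ECs Nrp2 was lower in arterial than in venous nuclei (log2 fold change −1.66, standard error 0.165), and Nrp1 was higher in aerocytes than in general capillary ECs (0.63, standard error 0.110). Flrt2, which binds Unc5 receptors, was higher in mesothelial nuclei (3.96, standard error 0.111) and in lymphatic ECs (2.34, standard error 0.133). Its relative Flrt3 was higher in alveolar type 1 nuclei (3.09, standard error 0.117).

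Of 37 effectors inside the cell, 36 were compared between the classes. Srgap1, whose product binds Robo receptors, was the 1 effector of 36 more than 2-fold higher in ECs, where 3.57% of all genes were (log2 difference 1.73, standard error 0.111), and it passed in lymphatic ECs and ciliated nuclei too. Of 30 effectors, 6 were higher in aerocytes than in general capillary ECs and 0 lower, beside 9.22% of all genes called. Among the 6 were the collapsin response mediators Dpysl2, Dpysl3 and Dpysl5 (log2 fold changes 0.55, 1.55 and 4.97). Chn1 and Chn2, which encode chimaerins that act below Eph receptors and plexins, were lower in arterial than in venous nuclei (−2.20 and −0.77), the 2 called of 31 effectors beside 3.73% of all genes. Between the genotypes 0 of 11 coreceptors and 0 of 35 effectors were called in ECs, where 7.01% of all genes were. In alveolar type 2 nuclei 2 of 33 effectors, Srgap2 and Fyn, were called, beside 8.34% of all genes. Both were lower in the Tg mice (log2 fold changes −0.79 and −0.75, edgeR adjusted p = 0.0317 and 0.0405). In the 8 other classes, 1 of 35 effectors, Rac1, was higher (0.76) and 1 of 11 coreceptors, Dscam, lower (−3.15) in the T or NK nuclei of the Tg mice, beside 5.86% of all genes called. Their edgeR adjusted p were 0.04845 and 0.00347. In the mesothelial nuclei of the Tg mice 1 of 31 effectors, Enah, was lower (−1.17, edgeR adjusted p = 0.03325), beside 5.73% of all genes. Whether these calls of effectors and coreceptors stand under the alternatives is not given here.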

How the data were processed

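Single-nucleus RNA-Seq of the lung was compared between 2 WT and 2 VEcad-TRF2DN-Tg mice, 1 library per mouse. The authors deposited an unfiltered matrix of UMI counts per library, made with Cell Ranger 6.1.1 on mm10 per the labels, with reads on introns counted. The filters and the removal of free RNA described in the methods are not part of these counts. Whether reads were counted by strand is not given in the sources used here.

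Barcodes of at least 1500 UMIs took the class whose markers most exceeded the profile of the empty droplets of that mouse (300 to 800 UMIs), by a Poisson log-likelihood ratio of at least 10 with a margin of 5 over the next class. Subclasses of ECs and fibroblasts needed a ratio and a margin of 1. No doublet caller was run, and nuclei with the markers of several classes were left out. Markers above 400 CPM in empty droplets and Flt1 were left out and the subclass thresholds loosened after class sizes and leading genes had been seen, before any genotype or subclass test. UMIs were summed per mouse and class. Genotypes were compared with edgeR 4.0.16 (quasi-likelihood test, TMM, filterByExpr with a minimum of 10 UMIs), subclasses with a term for each mouse, and a class with the mean of the others by glmTreat against a 2-fold difference. p-values were adjusted by Benjamini-Hochberg over all genes tested, at a threshold of 0.05, and p-values over 2 mice per genotype measure the spread between these mice only. All tests were two-sided, and classes needed 5 nuclei in every mouse. At an unadjusted p under 0.05 all genes were counted for the interaction only, so that such counts elsewhere have no share beside them. The fits were tested on simulated data. Alternatives were DESeq2 1.42.0, leaving out each mouse, a block for the replicate number, tests without the low-count filter, free RNA subtracted (its share taken from hemoglobin and, outside epithelium, secretoglobin transcripts), at least 3000 UMIs and a stricter class margin.

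Genes named are those called between genotypes (at most 10 per class), the 5 with the largest difference in a class, at most 6 called per direction between subclasses, 22 genes known in lung vessels and mesenchyme, and those with at most 1 UMI. Other genes named, with their values, were chosen after these had been seen. The genes described and all lists were chosen with earlier results of these data known.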

Additional observations from a re-analysis of the deposited data

How the results depend on the processing

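The replicate numbers are shared by the genotypes, but nothing in the labels pairs the mice, and the deviations of same-numbered mice in ECs had a correlation of 0.158 across genes. With the replicate number as a block (replicate block), guidance genes called between genotypes were 4 in ECs, where 14.6% of all genes were called, 1 in fibroblasts (8.32%), 6 in alveolar type 1 (2182 of 14548 genes), 3 in alveolar type 2 (10.2%) and 0 in pericytes (1.49%) and monocyte-macrophages (4.13%). The interaction and the class and subclass fits hold a term for each mouse already, so that no block could be added there. By DESeq2 the calls were 3 in alveolar type 1 nuclei (8.85%), 1 in ECs (7.57% of all genes), 5 in arterial against venous ECs (1.68%), 9 in aerocytes against general capillary ECs (3.95%) and 5 in alveolar against adventitial fibroblasts (6.36%). Without a filter on low counts they were 5 in ECs (12.0%), 2 in pericytes (1.85%), 3 in fibroblasts (4.96%), 10 in alveolar type 1 nuclei (13.6%) and 1 in monocyte-macrophages (1.59%). With free RNA subtracted they were 0 in alveolar type 1 (1.19%) and alveolar type 2 nuclei (0.755%), where the log2 fold changes of Sema3a and Sema3e stood at −1.87 and −1.09 in alveolar type 2 nuclei, 5 in arterial against venous ECs (1.73%), 9 in the aerocyte comparison (7.16%) and 5 in alveolar against adventitial fibroblasts (12.1%). With at least 3000 UMIs they were 2 in ECs (6.55%), 2 in pericytes (5.30%) and 1 in monocyte-macrophages (3.26%). With Flt1 kept among the markers, an alternative chosen after seeing the data, Sema3e was the 1 gene called in ECs (7.02% of all genes), and 8 (3.58%) and 12 (9.25%) genes were called in the arterial and aerocyte comparisons. Leaving out each mouse gave 0 to 3 in ECs (0.0145% to 10.2% of all genes), 0 to 2 in pericytes (1.22% to 5.87%), 0 to 2 in fibroblasts (1.92% to 10.2%), 0 to 7 in alveolar type 1 (0.0329% to 10.6%), 0 to 3 in alveolar type 2 nuclei (2.34% to 12.8%), 0 to 3 in monocyte-macrophages (0.145% to 7.60%), and 0 to 1 for the interaction, where Robo1 was called without WT replicate 1. The fit that called Robo1 had WT replicate 2 as its only WT mouse. The lowest share of all genes was that without Tg replicate 1 in each of the 6 classes. The subclass comparisons ranged over 7 to 9 (2.73% to 2.87% of all genes), 10 to 13 (7.14% to 8.92%) and 6 to 8 (8.34% to 15.5%). The calls of a class over the others, 69 in all, ranged over 63 to 78 under every alternative. In the main fit 2.23% to 10.0% of all genes were called in a class, and their share under the alternatives is not given here. In the 8 classes added after seeing the data, the counts ran from 0, with 0% of all genes called in 7 of these cases, to 8 in T or NK nuclei without the low-count filter, with 8.21%. Genes called in the report kept the sign of their log2 fold change in each alternative in which they were tested, and the causes of these shifts were not tested. A stricter class margin could not be applied to the fibroblast subclasses, which then had under 5 nuclei in a mouse. The summed level of the 71 genes was above empty droplets by a mean log2 difference of 0.80, and by 0.88 with the barcodes of 100 to 300 UMIs in their place. Each mouse had only 95 to 113 such barcodes, with a summed level of 3737, 2728, 1124 and 3005 CPM, so that this mean covers a wide spread. With 2 mice per genotype, and 200 genes changed 2-fold in simulated counts, the fit recovered 0% of them in ECs and 3.50% in alveolar type 2 nuclei. The simulated spread was estimated without a genotype term, unlike that of the real test, so these shares do not give its power.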
